A study of Mus musculus with 5 samples.

Results

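The 10 genes described here sense low oxygen or respond to it: Hif1a, Epas1, Arnt, Vegfa, Egln1, Egln3, Car9, Bnip3, Adm and Ankrd37. They were measured by bulk RNA-seq in mouse tissue labelled as colorectal tumour. They were taken by symbol from the deposited table of raw read counts, in which they are 10 of 54113 named entries and 10 of the 16133 genes with enough counts to be tested. The 5 libraries, labelled as CRC tumours, came from C57BL/6 mice that were kept for 2 weeks at 30 °C (3 libraries) or at 4 °C (2 libraries). Temperature was the only difference the labels give, and no genetic change or drug is named in either group. The study implanted MC-38 mouse colon carcinoma cells, among other lines, but the labels do not name the line, do not say whether a library came from 1 mouse or a pool, and give no age or sex. The study calls them separate biological samples, and the labels do not say whether these were separate mice, so the p-values below measure the spread between these libraries.

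Cells read oxygen through the hypoxia-inducible factors. Prolyl hydroxylases of the EGLN family use oxygen to mark HIF alpha subunits for destruction by the VHL ubiquitin ligase, so in low oxygen the alpha subunit is kept, pairs with ARNT and binds DNA at a short core motif beside target genes. The main control of HIF-1α lies at the protein, which RNA-seq does not measure, whereas target genes such as Vegfa, Car9, Adm, Bnip3, Egln3 and Ankrd37 are known as RNA targets of the pathway, several of them in solid tumours.

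No gene of the 10 passed the test between the temperatures after adjustment for all genes tested. Ankrd37 was the only one whose groups did not overlap, which 23.3% of all tested genes also showed (12.2% with higher levels at 4 °C): the libraries at 4 °C held 7.90 and 8.05 reads of it per 1000000 reads (CPM), and the 3 libraries at 30 °C held 3.28 to 4.84 CPM. The transcripts of the transcription factor subunits Hif1a, Epas1 and Arnt and of the oxygen sensor Egln1 varied by at most 1.55 times between the highest and lowest library. Egln3 varied 8.50-fold and Car9 4.96-fold between libraries, and for both the temperature groups overlapped.

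The HIF core motif is shown first, because it is the sequence through which HIF reaches the target genes among the 10. The letters ACGTG and GCGTG, and CACGT and CACGC for the other strand, were searched in RefSeq promoter windows (250 bases before to 50 bases after each gene's start, build GRCm38.p6). ACGTG and CACGT overlap in a CACGTG, which then counts as both, as do CACGC and GCGTG in a CACGCGTG. Of the 10 genes, 9 had at least 1 window in the RefSeq table, Epas1 being the exception, with 10 windows in all. The motif was in 9 of these 10 windows, against 43.8% of all 32851 windows in the table, and the forms with A (ACGTG and CACGT) were in 7 of 10 against 19.6%. A match of such short letters is a description of the window and not a measured binding site. The 6 stretches of 30 bases below are written 5′ to 3′ on the gene's strand, with motif letters in capitals, for the subunit whose transcript was most abundant per length, for the 2 target genes with the widest range, for Bnip3, which had the most matches, for Vegfa and for Ankrd37.
Hif1a, chr12:73907720-73907749, plus strand, in an intron of the annotated gene: cacacagacaagCACGTGagcggggcagct
Egln3, chr12:54204086-54204115, minus strand, upstream of the gene: tgtgcatctcagACGTGagatccaggtttt
Car9, chr4:43506996-43507025, plus strand, in annotated exon sequence at the gene's start: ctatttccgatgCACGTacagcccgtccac
Bnip3, chr7:138909597-138909626, minus strand, upstream of the gene: gcgCACGCgccgCACGTGccaCACGCtccc
Vegfa, chr17:46025364-46025393, minus strand, in annotated exon sequence before an inner start: aagccctggagtGCGTGccCACGTcagaga
Ankrd37, chr8:46000071-46000100, minus strand, in an intron of the annotated gene: cccagcagtACGTGcctagctcggctcgca
Bnip3 held 5 matches in its window, Ankrd37 4 and Hif1a 3, each with 1 overlapping pair counted as 2 matches. Vegfa had 2 windows, and the one at its outer start held no match.

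Depth was similar across libraries, with 16191708 to 20320525 reads assigned to named genes. The tissue label was checked against cell type markers, because a tumour library may hold other tissue. All 10 erythroblast, all 12 neutrophil and all 10 B cell markers were above 3 counts in every library. Erythroblast markers summed to 14005 to 42123 CPM, whereas the 9 tested of 13 epithelial and carcinoma markers summed to only 23.2 to 175 CPM. Krt19, Cldn3, Cldn4, Vil1 and Cdx2, which are epithelial, were at 0 in at least 1 library. The markers thus did not show carcinoma cells as the main content of these libraries, against their label. Summed CPM does not measure a share of cells, and 8 of the 13 epithelial and carcinoma markers were above 3 counts in every library. Every value below is that of a library labelled tumour. Of 7 markers of splenic mesenchyme, the stroma of the spleen, 6 were tested and summed to 91.0 to 151 CPM. Of the 7, 6 were above 3 counts in every library. One library stood apart: in 30 °C replicate 2, 24 pancreatic acinar genes took 26.5% of the counts, against 0.246% in 4 °C replicate 2 and at most 0.00802% in the other 3. Levels are therefore given as CPM after TMM scaling (edgeR), which offsets such a block of genes. The fold change of each of the 10 genes is also given without 30 °C replicate 2. For single genes of the wider lists, only the value over all 5 libraries is given. All 10 genes are annotated as protein-coding, and gene positions below are on GRCm38. In bulk tissue, fewer cells of a type and less RNA per cell cannot be told apart.

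The HIF alpha subunit Hif1a, the oxygen-regulated partner that drives the acute response (gene at chr12:73901375-73947530, plus strand), was measured at 102, 93.3 and 124 CPM in the 30 °C libraries and at 133 and 85.4 CPM in the 4 °C libraries. The 4 °C libraries were thus the highest and the lowest of all 5, and the groups overlapped. The warm libraries averaged 106 ± 15.6 CPM (SD, n = 3) and the cold ones 109 ± 33.3 CPM (SD, n = 2). The log2 fold change of 4 °C over 30 °C was 0.04 ± 0.24 (SE), with an adjusted p of 0.98 in edgeR's quasi-likelihood test. Its 95% interval ran from 0.682-fold to 1.55-fold, and without 30 °C replicate 2 the log2 value was −0.06.

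Epas1, which encodes HIF-2α, the alpha subunit prominent in endothelium and macrophages (chr17:86753700-86833410, plus strand), was at 79.2, 78.8 and 99.1 CPM at 30 °C and at 118 and 95.8 CPM at 4 °C. Only 30 °C replicate 3 reached into the range of the 4 °C libraries. The fitted difference of 4 °C over 30 °C was 0.32 ± 0.19 (SE) in log2, with an adjusted p of 0.81, and 0.25 without 30 °C replicate 2. Endothelial markers, at 662 to 886 CPM in sum at 30 °C and 817 to 901 CPM at 4 °C, and macrophage markers, at 2102 to 2571 and 2329 to 3186 CPM, both overlapped between the groups, and their part in the Epas1 level was not tested.

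Arnt, the constant partner of both alpha subunits (chr3:95434388-95497240, plus strand), was at 49.3, 54.6 and 57.4 CPM at 30 °C and at 55.0 and 39.5 CPM at 4 °C. The lowest library, 4 °C replicate 2, was also the lowest for Hif1a. At −0.19 ± 0.20 (SE) in log2, with an adjusted p of 0.88, Arnt was the only one of the 10 genes with a value below 0. It was −0.18 without 30 °C replicate 2.

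Ratios between subunit transcripts within a library do not depend on depth or on the scaling, so they were computed from the raw counts. Epas1 over Arnt was 1.61, 1.44 and 1.73 at 30 °C and 2.14 and 2.43 at 4 °C. Both cold libraries lay above all 3 warm ones, with means of 2.29 ± 0.200 (SD, n = 2) and 1.59 ± 0.142 (SD, n = 3). Hif1a over Epas1 was 1.28, 1.18 and 1.25 at 30 °C and lower in both cold libraries, at 1.12 and 0.891. Hif1a over Arnt was 2.06, 1.71 and 2.15 at 30 °C and 2.41 and 2.16 at 4 °C, so that the nearest libraries of the groups almost met. None of the ratios was tested, and a separation of this kind was frequent: it was seen for 22.4% of all tested genes divided by Arnt and for 31.8% of all tested genes divided by Epas1.

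**Figure D1:**
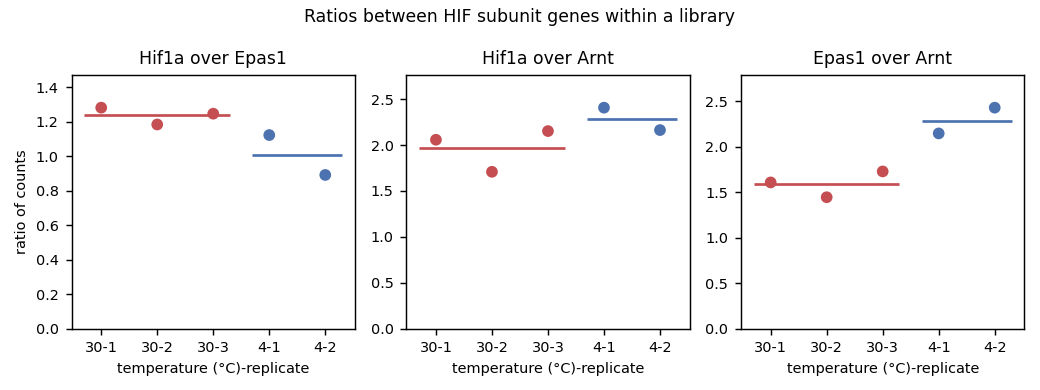
Ratio of raw read counts between the 3 HIF subunit genes in each library (x axis, temperature and replicate; red 30 °C, blue 4 °C; horizontal lines are group means). Epas1 over Arnt was 1.44 to 1.73 in the 30 °C libraries and 2.14 to 2.43 in the 4 °C libraries.

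Among the oxygen sensors, Egln1, the main hydroxylase that sets HIF-1α turnover in normal oxygen (chr8:124908587-124949324, minus strand), was at 50.1, 39.9 and 36.6 CPM at 30 °C and at 45.4 and 56.5 CPM at 4 °C. The highest library was cold and the lowest warm, but 30 °C replicate 1 lay above 4 °C replicate 1. The log2 fold change was 0.27 ± 0.21 (SE), with an adjusted p of 0.85, and 0.22 without 30 °C replicate 2. Leaving out any 1 library gave 0.09 to 0.42.

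Egln3, a hydroxylase that is itself induced by HIF (chr12:54178981-54203860, minus strand), was the most variable of the 10. It was at 19.2, 3.86 and 3.36 CPM at 30 °C and at 3.38 and 28.5 CPM at 4 °C, from 362, 47, 77, 68 and 477 reads in that order. One library of each group, 30 °C replicate 1 and 4 °C replicate 2, was high, and the other 3 lay between 3.36 and 3.86 CPM. The log2 fold change was 0.85 ± 1.12 (SE), with an adjusted p of 0.91, and its 95% interval ran from 0.253-fold to 12.8-fold. It was 0.48 without 30 °C replicate 2 and −1.40 without 4 °C replicate 2. Without 30 °C replicate 1 it was 2.15, and without 4 °C replicate 1 it was 1.69. The spread of log2 CPM within groups was 1.68, wider than that of 98.4% of all tested genes. Egln3 over Egln1 was 0.384 and 0.505 in the high libraries and 0.0743 to 0.0965 in the other 3.

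Summed fibroblast markers were highest in the same pair of libraries as Egln3, at 1140 CPM in 30 °C replicate 1 and 1350 CPM in 4 °C replicate 2, against 554 to 651 CPM in the other 3. All 10 fibroblast markers were above 3 counts in every library. Epithelial markers were at 63.7 and 96.1 CPM in that pair, and at 175, 23.2 and 23.2 CPM in the others. The part of either cell type in the Egln3 level was not tested.

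Of the secreted HIF targets, Vegfa, the growth factor that drives new vessels towards low oxygen (chr17:46016993-46032369, minus strand), was at 22.1, 30.2 and 18.4 CPM at 30 °C and at 30.3 and 24.7 CPM at 4 °C. The acinar-rich library, 30 °C replicate 2, was as high as the higher cold library, and without it the remaining warm libraries lay below both cold ones. Over all 5 libraries the log2 fold change was 0.23 ± 0.26 (SE), with an adjusted p of 0.89. It was 0.43 without 30 °C replicate 2, and leaving out any 1 library gave 0.07 to 0.43. The 95% interval ran from 0.760-fold to 1.80-fold.

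Adm, which encodes the vasodilator peptide adrenomedullin (chr7:110627661-110629820, plus strand), was at 2.34, 3.69 and 2.97 CPM at 30 °C and at 3.63 and 5.62 CPM at 4 °C, from 44 to 94 reads. Again 30 °C replicate 2 overlapped the cold group, at a level whose counting error (2.69 to 4.94 CPM) took in the lower cold library. For Adm the fitted difference was 0.63 ± 0.37 (SE) in log2, with an adjusted p of 0.81. It was 0.79 without 30 °C replicate 2, and leaving out any 1 library gave 0.26 to 0.91.

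Car9 encodes carbonic anhydrase 9, a surface enzyme used as a tissue marker of tumour hypoxia (chr4:43506966-43513729, plus strand). It was at 2.44, 2.38 and 1.13 CPM at 30 °C and at 1.74 and 5.62 CPM at 4 °C, from 26 to 94 reads. Only 4 °C replicate 2 lay clear of the others. Fibroblast markers were highest in that library and epithelial markers in 30 °C replicate 2, and the part of either in the Car9 level was not tested. Of Car9 exon sequence, 214 bases are shared with the antisense gene Gm12454, which had 7, 9, 26, 13 and 16 reads against 46, 29, 26, 35 and 94 of Car9, and with strand use unknown the reads of the 2 cannot be told apart there. The log2 fold change was 0.89 ± 0.60 (SE), with an adjusted p of 0.83, and it was −0.20 without 4 °C replicate 2 and 1.03 without 30 °C replicate 2.

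Bnip3, a mitochondrial protein that marks mitochondria for removal in low oxygen (chr7:138890836-138909519, minus strand), was at 15.6, 13.7 and 8.46 CPM at 30 °C and at 9.83 and 16.9 CPM at 4 °C. Each group held high and low libraries, and 504 bases of Bnip3 exon lie across from the antisense gene Gm45507, which had 0 reads in every library. The fold change in log2 was 0.09 ± 0.36 (SE), with an adjusted p of 0.97, and 0.14 without 30 °C replicate 2.

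Ankrd37, an ankyrin repeat gene described as a direct HIF-1 target (chr8:45996902-46005707, minus strand), was at 4.84, 3.28 and 4.27 CPM at 30 °C and at 8.05 and 7.90 CPM at 4 °C, from 91, 40, 98, 162 and 132 reads. Both cold libraries lay above all 3 warm ones, and the counting intervals of the lower cold library (6.61 to 9.37 CPM) and the highest warm library (3.89 to 5.94 CPM) did not meet. Those intervals cover counting error only and not the spread between libraries. The warm libraries averaged 4.13 ± 0.788 CPM (SD, n = 3), whereas the cold ones averaged 7.97 ± 0.105 CPM (SD, n = 2). The log2 fold change was 0.94 ± 0.29 (SE), a 1.92-fold difference with a 95% interval of 1.19-fold to 3.11-fold. Its unadjusted p in edgeR was 0.0153, and the adjusted p was 0.69. DESeq2 gave 0.93 with an adjusted p of 0.21. Without 30 °C replicate 2 the difference was 0.80, and over all 15 alternatives to the processing it lay between 0.80 and 1.07, with adjusted p-values from 0.21 to 1.00.

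The Ankrd37 value has measured limits. Of its exon sequence, 349 bases are shared with Lrp2bp and 57 with Ufsp2 on the opposite strand, and whether the counting used strand is not given in the sources used here. Lrp2bp had 0 to 6 reads per library, and Ufsp2 was at 24.3 to 35.5 CPM at 30 °C and 25.5 to 27.2 CPM at 4 °C, a log2 difference of −0.24. The 6 tested of 7 splenic mesenchyme markers summed to 91.0 to 112 CPM at 30 °C and 130 to 151 CPM at 4 °C. These sums thus also did not overlap, and this was the only marker list of which that held. Such a separation was frequent, being seen for 23.3% of all single genes tested. Of the 7 markers, Barx1 was at 0 in at least 1 library, and their part in the Ankrd37 level was not tested.

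**Figure D2:**
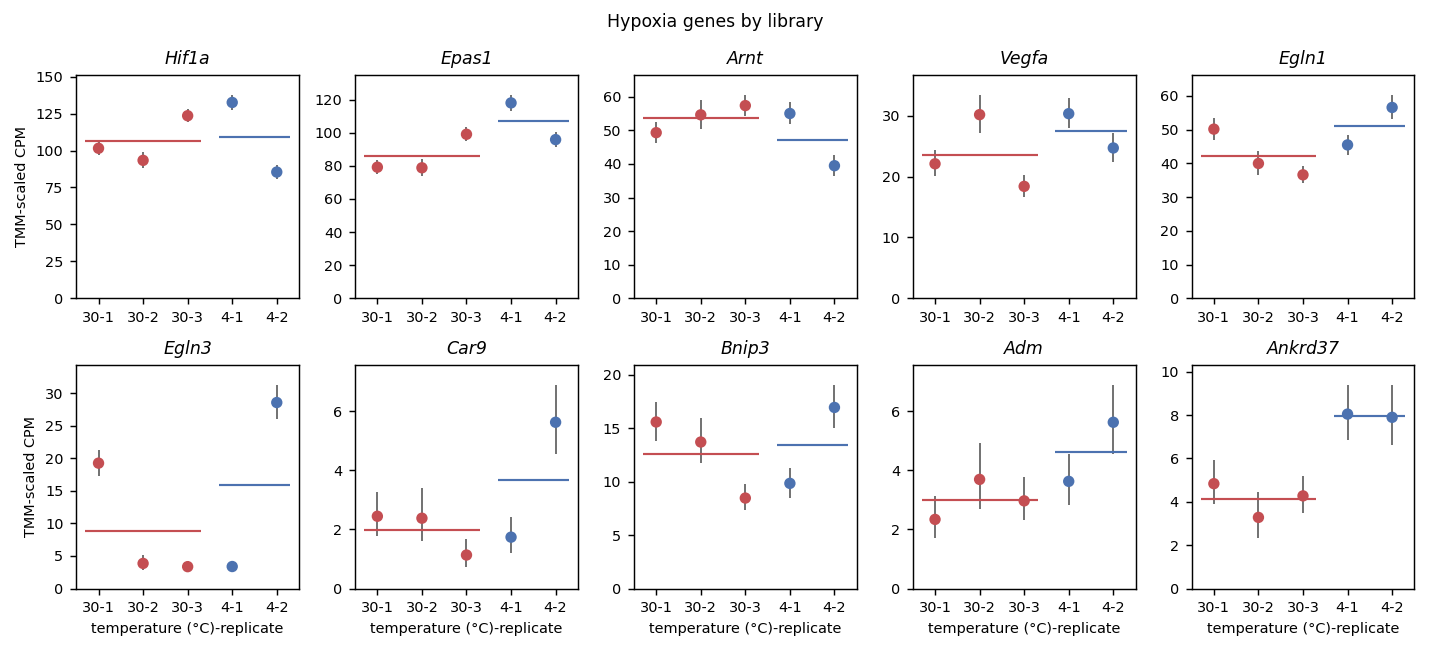
TMM-scaled CPM of the 10 genes (y axes from 0) in each library (x axis, temperature and replicate; red 30 °C, blue 4 °C). Vertical bars are 95% Poisson intervals of the read count, which cover counting error only, and horizontal lines are group means. Ankrd37 was at 3.28 to 4.84 CPM in the 30 °C libraries and at 7.90 and 8.05 CPM in the 4 °C libraries, and Egln3 was high in 1 library of each group.

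Counted together, 0 of the 10 genes passed an adjusted p of 0.05 in edgeR, where 0% of all 16133 genes did. DESeq2 called 0 of the 8 to which it gave an adjusted p, and 118 genes in all. It gave none to Car9 and Adm. At an unadjusted p under 0.05, edgeR counted 1 of 10, Ankrd37, against 6.76% of all genes in either direction and 2.58% of all genes higher at 4 °C. Groups did not overlap for 1 of 10 genes, against 23.3% of all genes in either direction and 12.2% higher at 4 °C.

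The fold changes were above 0 for 9 of the 10 genes, against 50.7% of all genes, with a median of 0.30 against 0.0064 for all genes. The 10 genes share libraries and pathway and were chosen with earlier results of these data known, so these values were not tested. For the same reasons the share of all genes is not a measure of chance for them. The number above 0 was 8 without any one of 30 °C replicate 2, 30 °C replicate 3 and 4 °C replicate 1, and 7 without 4 °C replicate 2 or with both libraries that held pancreatic transcripts left out. Scaling by total counts moved the median of all genes to 0.11 and their share above 0 to 62.8%, and the median of the 10 to 0.40. Without 4 °C replicate 2 the median of the 10 was 0.18, without 4 °C replicate 1 it was 0.43, without 30 °C replicate 2 it was 0.34, and without both pancreatic libraries it was 0.14.

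**Figure D3:**
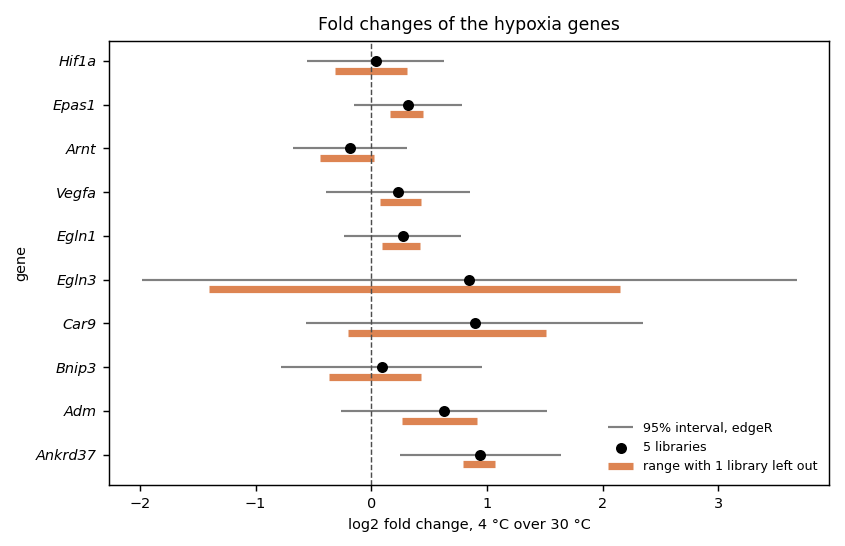
Log2 fold change of 4 °C over 30 °C for the 10 genes (points, 5 libraries) with the 95% interval of the edgeR fit (grey) and the range of the value when each library was left out in turn (orange). The interval of Ankrd37, 0.25 to 1.64, lay above 0 before adjustment for the number of genes tested, and that of Egln3 ran from −1.98 to 3.68.

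Across the 5 libraries the genes fell into different orders. The highest level was in 4 °C replicate 2 for 5 genes, in 4 °C replicate 1 for 4 and in 30 °C replicate 3 for 1, and the lowest was in 30 °C replicate 3 for 5. The 4 °C libraries differed from each other: replicate 1 was the top library for Hif1a, Epas1, Vegfa and Ankrd37 and replicate 2 for Egln1, Egln3, Car9, Bnip3 and Adm. Likeness was measured as the root mean square difference of log2 CPM, centred on each gene's mean, over the 5 libraries. The most alike pair was Hif1a and Arnt (0.16), followed by Hif1a and Epas1 (0.19) and by Bnip3 and Egln1 (0.25). Egln3 was far from all others, its nearest being Car9 at 0.85.

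**Figure D4:**
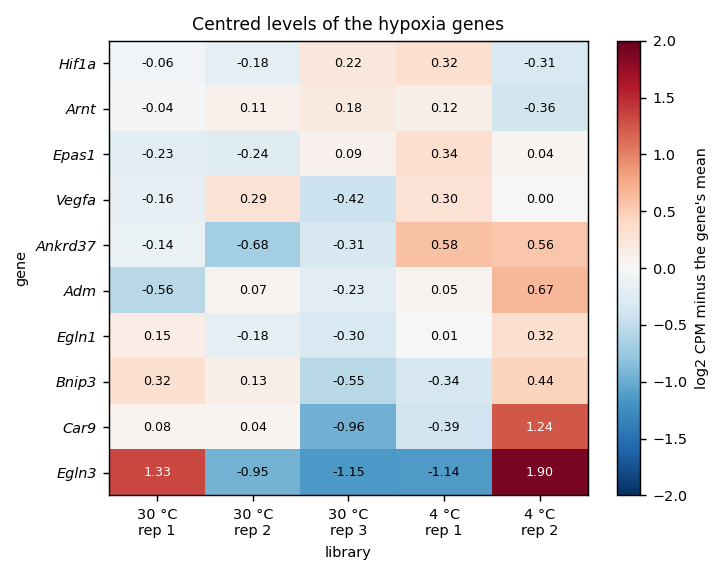
Log2 CPM of each gene minus its mean over the 5 libraries (colour and printed value; rows genes, columns libraries). Egln3 and Car9 were highest in 4 °C replicate 2, Hif1a and Arnt were lowest there, and Ankrd37 was above its mean in both 4 °C libraries and below it in all 3 at 30 °C.

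Levels per kilobase of exon allow genes to be compared with each other. Hif1a, Epas1 and Egln1 were the 3 most abundant in every library, at means of 18.2, 16.8 and 12.7 TMM-scaled CPM per kilobase, and Car9 was the least abundant in every library, at a mean of 1.16. Hif1a was above Epas1 per kilobase in 4 libraries and below it in 4 °C replicate 2 (14.5 against 17.1). Arnt (6.39), Vegfa (5.87) and Bnip3 (5.69) lay next to each other and changed places between libraries. Egln3 was the fourth most abundant in the libraries where it was high and below all but Car9 in the other 3.

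Of 13154 other genes with a mean of at least 1 log2 CPM, those whose pattern over the 5 libraries was most like that of Hif1a were Armh3, Smarca2 and Gm4524, at distances of 0.02 to 0.03. For Vegfa they were Sox13, Snx7 and Zfp85, at 0.10. For Ankrd37 they were Tnfrsf25, a death receptor of T cells, Prmt2, an arginine methyltransferase, and Pdlim4, at 0.09 to 0.11. Tnfrsf25 was at 2.21 to 3.14 CPM at 30 °C and at 6.01 and 6.04 CPM at 4 °C.

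The wider machinery of oxygen sensing was read from a list of 20 genes for alpha subunits, hydroxylases, the VHL ligase, chaperones and coactivators. None passed an adjusted p of 0.05 in edgeR or in DESeq2, and 0 passed an unadjusted p under 0.05 in either. Their median log2 fold change was 0.06. The smallest p was that of Rack1, a scaffold that also binds HIF-1α, at 1523 to 1624 CPM at 30 °C and at 1872 and 2184 CPM at 4 °C (log2 fold change 0.35, adjusted p = 0.76). Hif3a, an alpha subunit whose short forms oppose HIF-1, was at 2.05 to 7.33 CPM at 30 °C and at 2.28 and 1.56 CPM at 4 °C (−1.20, adjusted p = 0.76). Cited4 (−0.55), which competes for the coactivators of HIF, Siah2 (0.29), a ligase for hydroxylases, and Cul2 (−0.18), a scaffold of the VHL ligase, had adjusted p-values of 0.79 to 0.86.

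Of 54 other HIF target genes, 53 could be tested, and Epo, the hormone of red cell production, was at 0 reads in all 5 libraries, and a count of 0 leaves room for a level of up to 0.185 CPM before TMM scaling. None was called after adjustment by edgeR or DESeq2. At an unadjusted p under 0.05, edgeR counted 2 higher and 3 lower at 4 °C, 9.43% of the list against 6.76% of all genes, with a median log2 fold change of −0.04 over the list. The glucose transporter Slc2a1 was at 44.7, 27.3 and 37.6 CPM at 30 °C and at 52.5 and 56.7 CPM at 4 °C (log2 fold change 0.58, adjusted p = 0.73). The second glucose transporter, Slc2a3, was lower at 4 °C, at 66.1 to 84.0 CPM against 54.8 and 43.2 CPM (−0.59, adjusted p = 0.70). The glycolytic regulator Pfkfb4 was at 23.0 to 32.4 CPM at 30 °C and at 17.7 and 17.9 CPM at 4 °C (−0.62, adjusted p = 0.70).

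The chemokine Cxcl12 was at 220 to 245 CPM at 30 °C and at 421 and 298 CPM at 4 °C (0.62, adjusted p = 0.69). The transferrin receptor Tfrc, which red cell precursors make in quantity, was at 323 to 842 CPM at 30 °C and at 271 and 234 CPM at 4 °C (−1.20, adjusted p = 0.70). Erythroblast markers overlapped between the groups, at 14005 to 42123 CPM at 30 °C and 33136 to 40914 CPM at 4 °C, as did neutrophil markers, at 3189 to 13814 and 2649 to 4309 CPM. Their part in these values was not tested. Without 30 °C replicate 2, 1 of the 53 was counted at an unadjusted p under 0.05, where the share of all genes was 3.24%, without 4 °C replicate 2 also 1 (3.18% of all genes), and without 4 °C replicate 1 there were 2 (7.68%).

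Among 19 ligands and receptors of the VEGF, angiopoietin and adrenomedullin systems, 18 could be tested, Calca having 0 reads in 3 libraries. None was called after adjustment by edgeR or DESeq2, and the median log2 fold change was 0.03. The count at an unadjusted p under 0.05 was 1, Angpt2, a vessel-destabilising ligand made by endothelium, at 3.51, 4.27 and 9.11 CPM at 30 °C and at 12.0 and 12.4 CPM at 4 °C (1.11, adjusted p = 0.72). That is 5.56% of the list, against 6.76% of all genes. Without either 4 °C library this count was 0. Vegfc (0.42), the lymphatic growth factor, and Ramp2 (0.40), the partner of the adrenomedullin receptor, had adjusted p-values of 0.83 and 0.85. The adrenomedullin relative Adm2 was at 7.30 CPM in the acinar-rich 30 °C replicate 2 and at 0.349 to 1.29 CPM in the others. The VEGF receptor Flt1 was at 20.3 to 41.6 CPM at 30 °C and at 31.5 and 19.3 CPM at 4 °C (−0.33, adjusted p = 0.88).

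**Figure D5:**
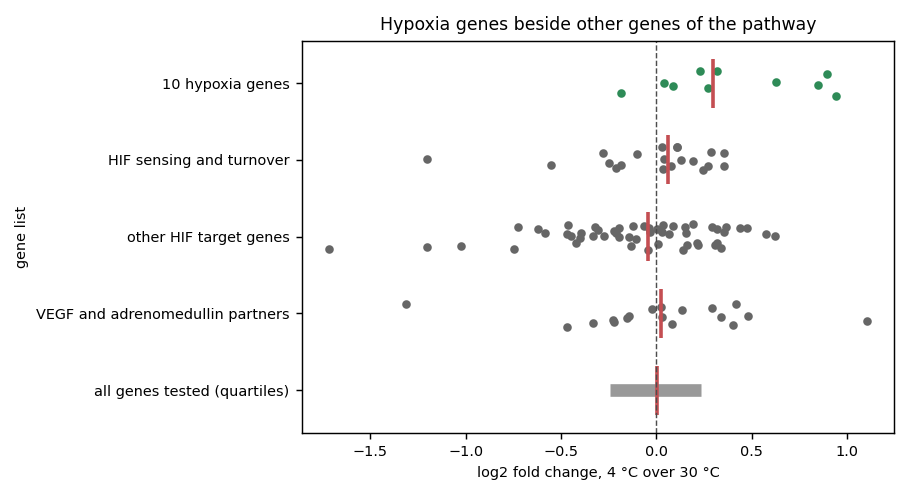
Log2 fold change of 4 °C over 30 °C for the 10 hypoxia genes (green), for 3 lists of other genes of the pathway (grey points, 1 per tested gene) and for all tested genes (grey bar, lower to upper quartile). Red lines are medians, at 0.30 for the 10 genes, 0.06, −0.04 and 0.03 for the lists from top to bottom, and 0.0064 for all genes. No gene in the 4 upper rows was called after adjustment.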

How the data were processed

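Bulk RNA-seq libraries were prepared with a TruSeq RNA kit from 200 ng of RNA per group, per the labels. The submitters' processing notes name fastp, HISAT and RSEM and the genome build GRCm38. The study's methods describe counting with featureCounts on GENCODE annotation, and strand use is not given in the sources used here. The deposited values are whole-number read counts per gene, made by the authors without normalization. Entries without a symbol were left out of library sizes (333 entries, at most 0.0170% of counts). Entries sharing 1 of 97 symbols were kept apart as separate entries and were not summed.

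Counts were scaled by TMM and tested with edgeR 4.0.16 (filterByExpr, robust quasi-likelihood F-test, Benjamini-Hochberg over 16133 genes, threshold 0.05, prior count of 2 for log2 CPM) in R 4.3.3. Intervals are 95%. DESeq2 1.42.0, other scalings and filters, a replicate block and leaving out libraries were alternatives. The scripts were tested on simulated data. The 10 genes, the lists and the markers were chosen with earlier results of these data known. Named genes are all 10, the 5 smallest unadjusted p of each list, and for Hif1a, Vegfa and the gene of smallest p the 3 genes nearest in centred log2 CPM. The subunit ratios were added after values were seen. Positions and exon lengths came from GENCODE vM21 on GRCm38. Figures used matplotlib 3.10.9.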

Additional observations from a re-analysis of the deposited data

How the results depend on the processing

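No gene of the 10 or of the 3 lists was called under any of the 15 alternatives, of which the joint omission of 30 °C replicate 2 and 4 °C replicate 2, the libraries with pancreatic transcripts, was chosen after seeing the data. Counts over all genes did move, from 0 called to 118 with DESeq2, 44 with the replicate block and 8 with total counts. The fold change of Epas1 was 0.16 to 0.45 over all 15, that of Vegfa 0.07 to 0.57, Egln1 0.05 to 0.42, Adm 0.26 to 0.91 and Ankrd37 0.80 to 1.07. Genes whose groups did not overlap numbered 2 with upper-quartile scaling (Epas1 and Ankrd37; 23.8% of all genes), 3 with total counts (Vegfa, Adm and Ankrd37; 16.4%), 2 to 8 with 1 library left out (29.0% to 58.5%) and 6 with both left out (60.5%). Ankrd37 was among them each time. Its unadjusted p was 0.0909 with the replicate block, 0.0645 without 4 °C replicate 1, 0.0583 without 4 °C replicate 2 and 0.159 with both left out.

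At an unadjusted p under 0.05, the count among the 10 was 0 with the block, 0 to 1 with 1 library left out and 0 with both left out. Among the oxygen-sensing list it was 1 with total counts, 1 with no filter and 0 to 1 with 1 library left out. Among other HIF targets it was 3 with total counts, 3 with the block, 1 to 7 with 1 library left out and 2 with both left out, while the share of all genes was 4.13%, 6.06%, 3.18% to 9.36% and 1.43%. Among VEGF and adrenomedullin partners it was 0 to 1 with 1 library left out and 0 with both left out. With the block, 8 of the 10 fold changes were above 0, and that of Bnip3 was −0.18. With 1 library left out, the log2 fold change ranged from −0.31 to 0.31 for Hif1a, from −0.44 to 0.019 for Arnt, from −1.40 to 2.15 for Egln3, from −0.20 to 1.51 for Car9 and from −0.37 to 0.43 for Bnip3. With both left out it was 0.029 for Arnt, −1.76 for Egln3, −0.053 for Car9 and −0.30 for Bnip3. The causes were not tested.

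Replicate numbers were shared by 2 pairs of libraries, whose deviations from the group means correlated at −0.25 and 0.26. With 2 libraries at 4 °C, their deviations mirror each other, so these correlations cannot decide on pairing. The numbers were not taken as pairing in the main fit. A fit without 1 cold library leaves a single one, assumed to vary like the warm group. The coefficient of variation between libraries of a group, over all genes, was 0.367. Car9 and Adm rested on fewer than 100 reads per library.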
